A study of Homo sapiens with 24 samples.

Results

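Δ133p53α2 and Δ133p53α1 are separate clones of H1299 cells that express the same isoform, Δ133p53α, and their RNA was compared library by library. H1299 cells derive from a human non-small cell lung carcinoma and are given as p53 null by the study. The comparison took 8 of the 24 libraries of the series, 4 labelled Δ133p53α2 and 4 labelled Δ133p53α1. The other libraries came from H1299 cells carrying the empty vector (control), from a further Δ133p53α clone (Δ133p53α8) and from clones that express Δ133p53β. No further treatment or time point is given in the labels. Each Δ133p53 cell line is 1 clone, so the clone, the plasmid it carries and the isoform level cannot be told apart as the source of a difference. The sources used here do not state whether the 4 libraries of a clone came from separate cultures, so p-values measure only the spread between libraries, which may be technical.

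Δ133p53 isoforms are shortened p53 proteins that begin inside the DNA-binding domain and therefore lack the transactivation domains of full-length p53, and the letter α or β names the C-terminal end. They can alter transcription through interaction with other transcription factors and other p53 family members. A stable clone grows from a single transfected cell, and whatever that founder cell had switched on or off can be passed to its descendants. A pair of clones of the same isoform therefore gives a measure of how far lines differ when the isoform is the same.

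Polyadenylated RNA was sequenced, and the authors deposited the number of reads per gene. The 8 libraries held from 21754700 to 22114711 counts on genes, and all levels are given in CPM, which are counts normalised to the library size after TMM scaling. Of 20 epithelial marker genes, CDH1 had 0 counts and EPCAM, GRHL2, OVOL1, RAB25 and ELF3 had 3 counts or fewer in each of the 8 libraries, and the list summed to between 3195 and 7623 CPM, most of it from the keratins KRT8 and KRT18. Among the other epithelial markers, CLDN1, DSP and OCLN reached 3135, 2248 and 402 counts in a library. Mesenchymal marker genes summed to between 2617 and 5148 CPM, most of it from VIM, which codes for vimentin. Of these 20 genes, SNAI2, CDH11, FAP, THY1, POSTN and LUM had 3 counts or fewer in each of the 8 libraries. Immune cell markers summed to between 2.81 and 9.91 CPM, and 8 of 12, with PTPRC (CD45) at 0, had 3 counts or fewer in every library of both clones. The summed level of immune markers was 6.09 to 9.91 CPM in Δ133p53α1 and 2.81 to 5.76 CPM in Δ133p53α2. Endothelial and fibroblast markers summed to 2.66 CPM or less in every library, and 3 of 6 and 3 of 7 of them had 3 counts or fewer throughout.

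The replicate 1 libraries stood apart from the other libraries of their clone. Each gene's departure from its average level was compared with gene length within each library. The rank correlation of the 2 measures, which is across genes and not across independent samples, was 0.298 in replicate 1 of Δ133p53α1 and between -0.270 and -0.246 in replicates 2 to 4. In Δ133p53α2 the signs were the other way round, with -0.242 in replicate 1 and between 0.203 and 0.236 in replicates 2 to 4. Replicate 1 of each clone thus fell with replicates 2 to 4 of the other clone. The libraries with a positive correlation are called the positive set, and those with a negative correlation the negative set. Each set held 1 library of one clone and 3 of the other. The cytosolic ribosomal protein genes, which code for the protein part of the ribosome, followed the sets. Their summed level was 25665 CPM in replicate 1 and 53596 to 67111 CPM in replicates 2 to 4 of Δ133p53α1, against 81342 CPM in replicate 1 and 29044 to 31950 CPM in replicates 2 to 4 of Δ133p53α2. What made the sets differ was not tested.

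**Figure D1:**
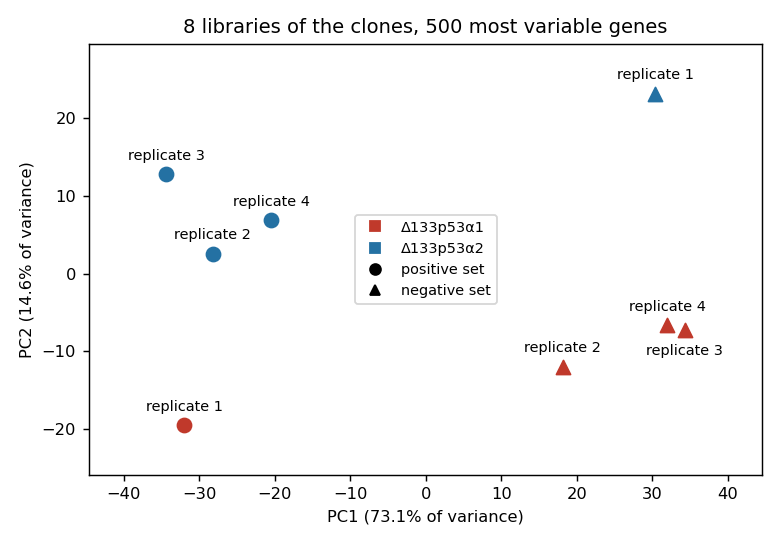
Principal component analysis of the 8 libraries with the 500 genes of highest variance in log2 CPM. The x axis is PC1 (73.1% of the variance) and the y axis is PC2 (14.6%), and each point is 1 library, with colour for the clone, symbol for the library set and a number for the replicate. Along PC1 the libraries divide by set, and along PC2 all 4 Δ133p53α1 libraries lie below 0 and all 4 Δ133p53α2 libraries above 0.

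When all squared distances between the 8 libraries were added up over the 500 most variable genes, a share of 0.257 lay between the clones. An exact two-sided permutation test over the 35 ways to divide 8 libraries into 4 and 4 gave p = 0.114, where the smallest p the design allows is 0.0286. The share that lay between the sets was 0.704. Since the clones were spread unevenly over the sets, these shares overlap, and the share between the clones holds part of the set difference. The mean difference between sets was then estimated from all lines, with the line labels in the fit, and removed. After this the share between the clones was 0.523, and the permutation test gave p = 0.0286. The set difference was not estimated anew for each division, so this p favours the labelled clones and is not exact. In the plot of principal components, PC1 held 73.1% of the variance, with the positive set between -34.3 and -20.4 and the negative set between 18.2 and 34.3. PC2 held 14.6% of the variance and divided the clones, with Δ133p53α1 between -19.5 and -6.63 and Δ133p53α2 between 2.54 and 23.1. The clones were therefore set apart by a smaller component of the variance than the sets were.

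Of 18295 genes tested, 101 differed between the clones (0.552%), 45 higher (0.246%) and 56 lower (0.306%) in Δ133p53α2. The test was edgeR's quasi-likelihood test in a fit of 23 libraries, and a gene passed where its adjusted p (Benjamini-Hochberg) was under 0.05 and its log2 fold change was 1.5 or more, or -1.5 or less. Positive log2 fold changes are higher in Δ133p53α2 throughout. When the library set was added to the fit as a term, 144 genes passed (0.787%), 59 higher (0.322%) and 85 lower (0.465%), and 92 genes passed in both fits in the same direction (0.503%). Of these 92, 41 were higher (0.224%) and 51 lower (0.279%) in Δ133p53α2. In all 92 the CPM of the 4 libraries of one clone did not overlap those of the other. This was the case for 6.01% of all tested genes, but the 92 were chosen on the same values. The lack of overlap is therefore no separate evidence. The difference had the same sign within the positive set and within the negative set for all 91 of the 92 that had a value in each. Since the libraries of the clones did not overlap, this was all but fixed in advance and is no separate check. The 41 genes that were higher comprised 30 protein-coding genes, 10 long noncoding RNAs (lncRNAs) and 1 pseudogene, and the 51 lower genes comprised 44, 6 and 1. Over all tested genes, the log2 fold change had a median size of 0.40, and of 0.25 with the set as a term. Fold changes of the genes named below are from the fit without that term, and all of them passed in both fits except where stated.

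For 7 genes the difference amounted to near absence in one clone. They had 3 counts or fewer in each library of one clone and at least 0.5 CPM in each library of the other. In this sense 5 were silent in Δ133p53α2 (LINC01419, HUNK, LINC01515, LRRK1 and NPAS2), and HPDL and the lncRNA ENSG00000270574 were silent in Δ133p53α1. Since such counts may lie below the depth of the libraries, folds were computed against 3 counts per library and are lower bounds that cover counting error only. In bulk RNA, fewer cells that express a gene and less RNA per cell cannot be told apart.

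The sequences around the start sites of 4 of the protein-coding genes in this group are given here, because CG dinucleotides near a start site can carry DNA methylation, a mark known for heritable silencing. Each is the RefSeq promoter (GRCh38.p14), 250 bases before to 50 bases after the start, 5′ to 3′ on the plus strand. Capitals mark CG, which reads the same on both strands and is the only motif that was searched. 
HUNK, chr21:31872770-31873069: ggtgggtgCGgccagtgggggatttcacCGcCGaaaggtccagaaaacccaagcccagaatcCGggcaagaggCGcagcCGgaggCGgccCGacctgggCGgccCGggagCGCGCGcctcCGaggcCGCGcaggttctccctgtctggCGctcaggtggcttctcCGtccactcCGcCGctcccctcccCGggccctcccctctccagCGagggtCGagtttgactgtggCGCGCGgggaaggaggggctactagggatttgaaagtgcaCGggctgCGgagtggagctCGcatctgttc
LRRK1, chr15:100919107-100919406: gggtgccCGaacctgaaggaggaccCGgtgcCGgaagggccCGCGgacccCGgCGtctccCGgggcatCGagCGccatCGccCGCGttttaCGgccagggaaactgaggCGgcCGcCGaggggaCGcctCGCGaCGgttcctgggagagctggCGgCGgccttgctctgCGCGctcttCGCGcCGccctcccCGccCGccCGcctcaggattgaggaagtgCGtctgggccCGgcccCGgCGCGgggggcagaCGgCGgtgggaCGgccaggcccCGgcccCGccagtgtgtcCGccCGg
NPAS2, chr2:100819889-100820188: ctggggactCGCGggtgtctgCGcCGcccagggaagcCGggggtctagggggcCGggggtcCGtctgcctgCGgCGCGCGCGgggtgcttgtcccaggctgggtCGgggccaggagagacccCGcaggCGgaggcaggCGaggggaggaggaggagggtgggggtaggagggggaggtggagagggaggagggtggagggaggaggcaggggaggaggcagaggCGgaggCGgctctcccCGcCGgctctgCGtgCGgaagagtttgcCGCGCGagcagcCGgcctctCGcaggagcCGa
HPDL, chr1:45326645-45326944: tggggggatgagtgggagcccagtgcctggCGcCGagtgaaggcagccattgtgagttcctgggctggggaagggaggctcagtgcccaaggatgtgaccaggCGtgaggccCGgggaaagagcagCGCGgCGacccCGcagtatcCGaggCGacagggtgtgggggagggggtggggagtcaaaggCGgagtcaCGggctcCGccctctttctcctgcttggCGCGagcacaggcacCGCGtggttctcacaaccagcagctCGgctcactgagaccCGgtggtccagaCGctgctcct
They hold 29, 43, 28 and 20 CG dinucleotides, where the median was 26 over the 11631 promoters of tested genes and 14 over all 27195 in the table, and 99.48% and 95.87% held at least 1. Counts of 20 to 29 were thus near the middle for tested genes. The start of LINC01515 held 3. Only 64 of the 92 genes and 11631 of the 18295 tested genes had a promoter in the table, so a comparison of groups was void. The counts describe the sequence only, and methylation was not measured here.

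LINC01419 (ENSG00000253898), a lncRNA on chromosome 8 from 83403758 to 83408900, showed the lowest log2 fold change of the named genes. Its level was 19.3, 16.3, 20.7 and 18.8 CPM in replicates 1 to 4 of Δ133p53α1 and 0, 0.0437, 0 and 0.124 CPM in Δ133p53α2. It was at least 138-fold lower in Δ133p53α2 (edgeR quasi-likelihood test, adjusted p = 4.16e-08), with no library near the other clone. Control cells expressed it at 16.8 CPM ± 4.77 (SD, n = 4) and Δ133p53α8 at 0.138 ± 0.152, so that Δ133p53α1 was on the side of control and Δ133p53α2 on the side of Δ133p53α8. LINC01515 (chromosome 10 from 65570338 to 65880289) was at 1.94, 0.76, 0.714 and 0.799 CPM in Δ133p53α1 and had 0 counts in all 4 Δ133p53α2 libraries, at least 7.73-fold lower (adjusted p = 0.000388). Its level in control was 0.104 CPM ± 0.0784, and Δ133p53α1 was in this case the clone that stood apart.

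HUNK, a serine/threonine kinase of the AMPK-related group, measured 1.69, 1.01, 1.1 and 0.533 CPM in Δ133p53α1 and 0.0557, 0.0873, 0 and 0.0825 CPM in Δ133p53α2. It was at least 7.94-fold lower in Δ133p53α2 (edgeR, adjusted p = 0.0207). The call of HUNK was lost when Δ133p53α1 replicate 3 or Δ133p53α2 replicate 3 or 4 was left out, with adjusted p of 0.0503, 0.0985 and 0.0631. NPAS2 is a basic helix-loop-helix transcription factor of the circadian clock. It was at 0.93, 0.912, 1.04 and 0.533 CPM in Δ133p53α1 and at 0, 0.0873, 0 and 0 CPM in Δ133p53α2, at least 6.26-fold lower (adjusted p = 0.000618). Control held 2.94 CPM ± 1.93 of NPAS2 and Δ133p53α8 0.0541 ± 0.0201. LRRK1, a leucine-rich repeat kinase, was at least 6.60-fold lower in Δ133p53α2 (adjusted p = 0.00238), from 0.608 to 1.48 CPM in Δ133p53α1 and from 0 to 0.0557 CPM in Δ133p53α2. LRRK1 and NPAS2 lay outside the rule by which genes were chosen for naming and were named after their values were seen.

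HPDL, a protein of mitochondria related to hydroxyphenylpyruvate dioxygenase, was the converse case. It had 0, 2, 2 and 2 counts in Δ133p53α1 and 69, 49, 44 and 39 counts in Δ133p53α2, or 3.84, 2.14, 1.82 and 1.61 CPM. The level was at least 15.6-fold higher in Δ133p53α2 (edgeR, adjusted p = 0.00019), and the groups did not overlap. Control was at 4.05 CPM ± 1.13 and Δ133p53α8 at 1.35 ± 0.544, so Δ133p53α1 alone of these 4 lines had 3 counts or fewer of HPDL in every library.

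**Figure D2:**
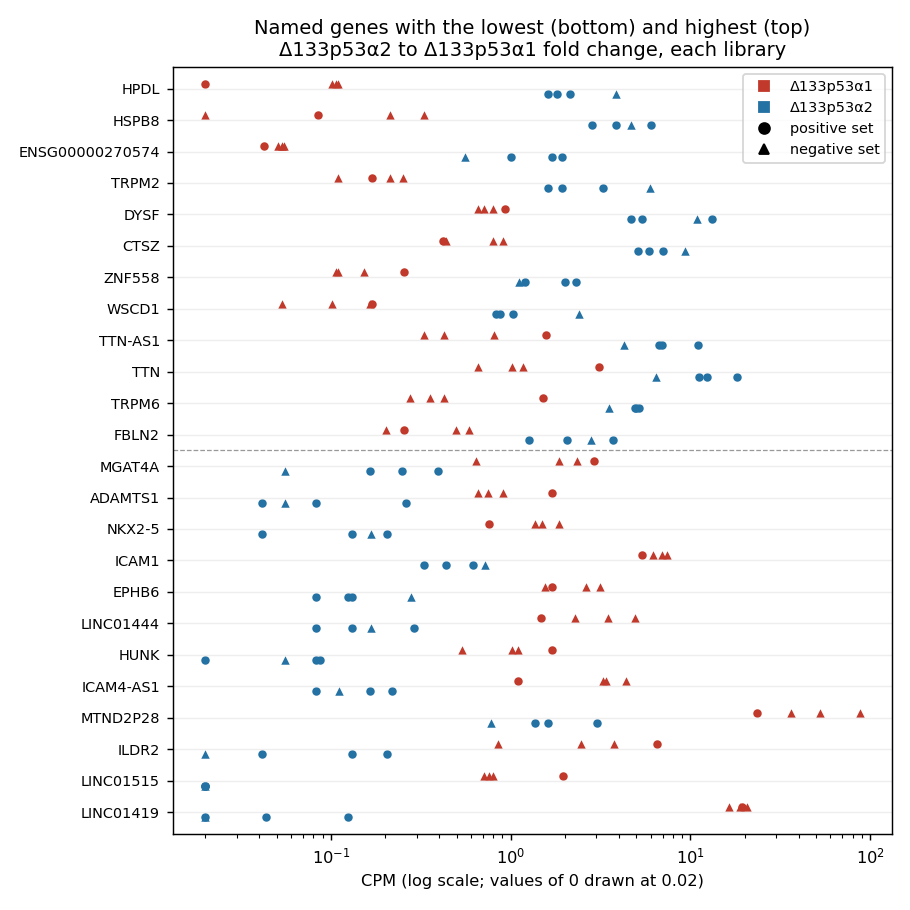
Level of the 24 named genes with the highest and lowest fold changes in each of the 8 libraries. The x axis is CPM on a log scale, with values of 0 drawn at the left edge, each row is 1 gene, and each point is 1 library, coloured by clone and shaped by library set. In every row the points of the clones do not overlap, which was part of the rule by which these genes were chosen. For LINC01419 they lie between 16.3 and 20.7 CPM in Δ133p53α1 and at or below 0.124 CPM in Δ133p53α2.

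The named genes lower in Δ133p53α2 included membrane receptors and an adhesion molecule. ICAM1, an adhesion molecule that binds leukocyte integrins and is induced by NF-kappaB, was at 5.37, 6.94, 7.42 and 6.18 CPM in Δ133p53α1 and at 0.724, 0.437, 0.619 and 0.33 CPM in Δ133p53α2. Its log2 fold change was -3.62 (SE 0.254, edgeR, adjusted p = 4.16e-08), and it was -3.48 within the positive and -3.23 within the negative set. Control (5.42 CPM ± 1.13) and Δ133p53α8 (7.7 ± 0.703) were at the level of Δ133p53α1, so the low level was that of Δ133p53α2. EPHB6, a member of the Eph receptors that lacks kinase activity, was at 1.69, 2.63, 3.13 and 1.55 CPM in Δ133p53α1 and from 0.0826 to 0.278 CPM in Δ133p53α2 (log2 fold change -3.87, SE 0.693, adjusted p = 0.00546, and 0.161 without replicate 1 of both clones and with the set as a term). Here control (0.0892 CPM ± 0.0554) and Δ133p53α8 (0.246 ± 0.223) were at the level of Δ133p53α2.

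ILDR2, an immunoglobulin-like membrane protein, was at 6.51, 3.75, 2.47 and 0.852 CPM in Δ133p53α1 and at 0, 0.131, 0.0413 and 0.206 CPM in Δ133p53α2 (log2 fold change -5.03, SE 0.863, edgeR, adjusted p = 0.00377). ADAMTS1, a secreted metalloprotease, and MGAT4A, which adds branches to N-glycans, fell by 3.12 and 3.11 on the log2 scale (adjusted p = 0.0265 and 0.0382). Both were at 0.393 CPM or less in every Δ133p53α2 library, and neither reached the Δ133p53α1 range of 0.659 to 1.69 CPM for ADAMTS1 and 0.639 to 2.92 CPM for MGAT4A. The call of ADAMTS1 was lost without replicate 1 of either clone or without Δ133p53α2 replicate 3 or 4, with adjusted p from 0.0523 to 0.123. The call of MGAT4A was lost without Δ133p53α1 replicate 1, 2 or 3 or Δ133p53α2 replicate 1, 3 or 4, with adjusted p from 0.0534 to 0.16.

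The transcription factors NKX2-5 and STAT6 were lower in Δ133p53α2 as well. NKX2-5, a homeobox factor known for heart development, was at 0.761, 1.37, 1.87 and 1.49 CPM in Δ133p53α1 and from 0.0413 to 0.206 CPM in Δ133p53α2 (log2 fold change -3.29, SE 0.618, edgeR, adjusted p = 0.00828). Without Δ133p53α2 replicate 3 its adjusted p was 0.0508, and without replicate 1 of both clones and with the set as a term it was 0.133. STAT6, the transcription factor of interleukin-4 signalling, was at 19.5, 18, 18 and 18.8 CPM in Δ133p53α1 and at 5.12, 4.19, 3.96 and 3.51 CPM in Δ133p53α2. The log2 fold change of STAT6 was -2.15 (SE 0.241, adjusted p = 4.25e-05), and the replicates of each clone were close to each other although they came from both sets. Mean levels in control (2.46 CPM ± 0.776) and Δ133p53α8 (1.3 ± 0.555) were below those of both clones.

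TNIK, a kinase of the Wnt pathway, showed one of the larger differences in absolute level. It was at 124, 72.3, 62.0 and 40.2 CPM in Δ133p53α1 and at 4.62, 8.17, 8.55 and 13.8 CPM in Δ133p53α2 (log2 fold change -3.08, SE 0.389, edgeR, adjusted p = 0.000169). Control (12.6 CPM ± 3.48) and Δ133p53α8 (8.64 ± 0.999) were in or near the range of Δ133p53α2. TNIK was named after its values were seen. The noncoding transcripts LINC01444 and MTND2P28 were also lower in Δ133p53α2, with log2 fold changes of -4.13 (adjusted p = 0.000169) and -4.87 (adjusted p = 1.23e-05). MTND2P28, a nuclear pseudogene of mitochondrial ND2, measured 23.4, 36.4, 52.3 and 87.5 CPM in Δ133p53α1 and 0.779, 3.01, 1.36 and 1.61 CPM in Δ133p53α2. Its sequence is nearly identical to the mitochondrial gene and the sources used here do not give how multiply mapped reads were counted, so its counts are uncertain. The 13 mitochondrially encoded genes summed to between 44572 and 82061 CPM in Δ133p53α1 and between 39150 and 49544 CPM in Δ133p53α2, and edgeR, DESeq2 and limma voom passed none of the 13, of which 7 had an unadjusted p under 0.05.

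The named genes higher in Δ133p53α2 included a chaperone, a lysosomal protease, a membrane repair protein and ion channels. HSPB8, a small heat shock protein, was at 0.0845, 0, 0.33 and 0.213 CPM in Δ133p53α1 and at 4.68, 6.03, 2.85 and 3.84 CPM in Δ133p53α2 (log2 fold change 4.79, SE 0.472, edgeR, adjusted p = 8.81e-06). Levels were 0.481 CPM ± 0.229 in control and 5.53 ± 0.227 in Δ133p53α8. CTSZ, the lysosomal protease cathepsin Z, was at 0.423, 0.912, 0.439 and 0.799 CPM in Δ133p53α1 and at 9.3, 5.11, 7.02 and 5.86 CPM in Δ133p53α2 (log2 fold change 3.40, SE 0.635, adjusted p = 0.00799). DYSF, or dysferlin, which acts in membrane repair, was at 0.659 to 0.93 CPM in Δ133p53α1 and at 10.9, 4.67, 13.2 and 5.41 CPM in Δ133p53α2 (log2 fold change 3.45, SE 0.575, adjusted p = 0.00289). For HSPB8, CTSZ and DYSF, the lowest Δ133p53α2 library was above the highest Δ133p53α1 library, and Δ133p53α2 replicate 1 was not the only high library. Without replicate 1 of both clones and with the set as a term, the log2 fold change of DYSF was 2.33 and its call was lost (adjusted p = 0.205).

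A pair of channels of the TRPM family rose. TRPM2, a calcium-permeable channel, was at 0.169, 0.253, 0.11 and 0.213 CPM in Δ133p53α1 and at 5.96, 3.28, 1.94 and 1.61 CPM in Δ133p53α2 (log2 fold change 4.05, SE 0.633, edgeR, adjusted p = 0.00156). TRPM6, a magnesium-permeable channel with a kinase domain, was at 1.52, 0.355, 0.275 and 0.426 CPM in Δ133p53α1 and at 3.51, 5.2, 4.91 and 4.99 CPM in Δ133p53α2 (log2 fold change 2.81, SE 0.399, adjusted p = 0.000591). The gap of TRPM6 was narrower in the positive set (log2 fold change 1.77) than in the negative set (3.29), and the difference between the sets was not tested. The channels differed in control, where TRPM2 was at 0.0638 CPM ± 0.0566 and TRPM6 at 7.69 ± 1.58.

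ZNF558, a zinc finger protein, rose by 3.34 on the log2 scale (edgeR, adjusted p = 0.000169) from 0.155 CPM ± 0.0686 in Δ133p53α1 to 1.66 ± 0.595 in Δ133p53α2 (n = 4 each). WSCD1 and FBLN2, the extracellular matrix protein fibulin 2, rose by 3.30 and 2.68 (adjusted p = 0.0198 and 0.0269). WSCD1 was at 2.39, 0.873, 1.03 and 0.825 CPM in Δ133p53α2, where replicate 1 was the high library, and at 0.0533 to 0.169 CPM in Δ133p53α1. FBLN2 was at 2.78, 1.27, 2.06 and 3.71 CPM in Δ133p53α2 and at 0.203 to 0.586 CPM in Δ133p53α1. The call of WSCD1 was lost without Δ133p53α1 replicate 2, 3 or 4, with adjusted p from 0.0665 to 0.095. The call of FBLN2 was lost without any 1 of the Δ133p53α1 replicates or without Δ133p53α2 replicate 3 or 4, with adjusted p from 0.0504 to 0.125.

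Some of the differing genes were neighbours. Of the 101 genes, 21 lay in 9 groups in which gene bodies were within 100 kb and moved in the same direction. How many such groups 101 genes drawn from all tested genes would form was not examined. Some of the groups hold overlapping transcripts of the same locus, so the count is no result about neighbouring genes. The largest group held 5 genes on chromosome 2 between 178521183 and 178830802, all higher in Δ133p53α2: TTN, which codes for the giant sarcomere protein titin, its antisense transcript TTN-AS1 and the lncRNAs ENSG00000270574, ENSG00000271011 and ENSG00000270277. TTN was at 3.08, 1.17, 0.659 and 1.01 CPM in Δ133p53α1 and at 6.46, 11.2, 18.1 and 12.4 CPM in Δ133p53α2 (log2 fold change 3.00, SE 0.465, edgeR, adjusted p = 0.00145). TTN-AS1 was at 1.56, 0.811, 0.33 and 0.426 CPM in Δ133p53α1 and at 4.29, 6.72, 11 and 6.93 CPM in Δ133p53α2 (log2 fold change 3.18, adjusted p = 0.00085). For both genes, replicate 1 of each clone was the library closest to the other clone. ENSG00000270574 and ENSG00000271011 rose by 4.57 and 3.79 on the log2 scale (adjusted p = 0.00019 for both). ENSG00000270277 rose by 2.74 (adjusted p = 0.0491), and its call was lost without Δ133p53α1 replicate 2, 3 or 4 or Δ133p53α2 replicate 2 or 4, with adjusted p from 0.0677 to 0.186. These 5 transcripts overlap in position, and since the strand setting of the counting is not stated, reads of TTN and its antisense partners cannot be told apart. Control (16.9 CPM ± 6.61 of TTN) and Δ133p53α8 (11.3 ± 3.24) were on the side of Δ133p53α2.

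The other 8 groups were pairs, and their members outside the names above were named after the groups were found. Higher in Δ133p53α2 were LINP1 with LINC00707, CRACR2A with PARP11, and TRPM2 with LINC02575. Lower in Δ133p53α2 were PPFIBP2 with CYB5R2, CEMIP with TLNRD1, ICAM1 with ICAM4-AS1, NPAS2 with NPAS2-AS1, and TNIK with ENSG00000279673. PPFIBP2, a liprin, was at 4.56, 4.91, 4.17 and 3.41 CPM in Δ133p53α1 and from 0.349 to 0.724 CPM in Δ133p53α2 (log2 fold change -3.05, SE 0.481, edgeR, adjusted p = 0.00173). Its neighbour CYB5R2, a cytochrome b5 reductase, was at 0.426 to 0.659 CPM in Δ133p53α1 and at 0, 0.0437, 0 and 0 CPM in Δ133p53α2, at least 4.17-fold lower (adjusted p = 0.00907, and 0.0508 without Δ133p53α2 replicate 3). ICAM4-AS1 overlaps the end of ICAM1, and NPAS2-AS1 lies within NPAS2, so these pairs share the doubt about strand. ICAM4-AS1 fell by 4.33 on the log2 scale (adjusted p = 8.05e-05), from between 1.10 and 4.39 CPM in Δ133p53α1 to between 0.0826 and 0.218 CPM in Δ133p53α2. TLNRD1 and ENSG00000279673 passed only in the fit without the set. Leaving out 1 library also ended calls of LINP1, LINC00707, CEMIP, NPAS2-AS1 and ENSG00000279673 at adjusted p of up to 0.177, among them those of all but LINP1 without Δ133p53α2 replicate 3. LINC02575 fell below the fold threshold without Δ133p53α2 replicate 1 (log2 fold change 1.44) or replicate 3 (1.497).

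Among the 26 genes taken from the study's text on RNA and surface proteins, 23 were tested and 3 differed between the clones, ANXA3, CRACR2A and STAT6. Over all 18295 tested genes, 0.552% differed. The study picked out the transcripts in its RNA sequencing text, these 3 included, on the same libraries, so they are not independent of the data. The surface protein genes were chosen by the study for their link to proto-oncogenes in lung cancer, not from these libraries. ANXA3, a phospholipid-binding annexin, was at 9.68, 10.0, 11 and 5.49 CPM in Δ133p53α1 and at 29.7, 28.3, 44.2 and 28.2 CPM in Δ133p53α2 (log2 fold change 1.85, SE 0.239, edgeR, adjusted p = 0.00019). CRACR2A, a calcium sensor that regulates store-operated calcium entry, was at 1.99, 1.27, 1.21 and 1.28 CPM in Δ133p53α1 and at 6.07, 5.72, 5.62 and 2.89 CPM in Δ133p53α2 (log2 fold change 1.81, SE 0.332, adjusted p = 0.00651). Both clones were above control, where ANXA3 was at 0.431 CPM ± 0.0711 and CRACR2A at 0.0289 ± 0.0367. For both genes Δ133p53α8 (30.4 CPM ± 5.55 of ANXA3 and 4.3 ± 1.22 of CRACR2A) was nearer to Δ133p53α2.

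Among the surface receptor genes of the study's text, MET and EGFR followed the sets more than the clones. MET was at 80.4, 30.3, 26.7 and 28.8 CPM in Δ133p53α1 and at 25.7, 64.9, 72.4 and 69.6 CPM in Δ133p53α2 (log2 fold change 0.48, edgeR, adjusted p = 0.518). EGFR was at 142, 45.2, 35.2 and 29.4 CPM in Δ133p53α1 and at 36.5, 121, 130 and 86.8 CPM in Δ133p53α2 (log2 fold change 0.57, adjusted p = 0.557). For both receptors, replicate 1 of one clone was in the range of, or just beyond, replicates 2 to 4 of the other, and with the set as a term the log2 fold changes were 0.0042 for MET and -0.025 for EGFR. TFRC, the transferrin receptor, ranged from 101 to 398 CPM in Δ133p53α1 and from 46.4 to 418 CPM in Δ133p53α2, a spread within each clone that covered the difference between them. ITGA5, an integrin subunit, was at 63.5 to 106 CPM in Δ133p53α1 and at 40.3 to 58.8 CPM in Δ133p53α2, which did not overlap but missed the threshold (log2 fold change -0.59, adjusted p = 0.264).

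**Figure D3:**
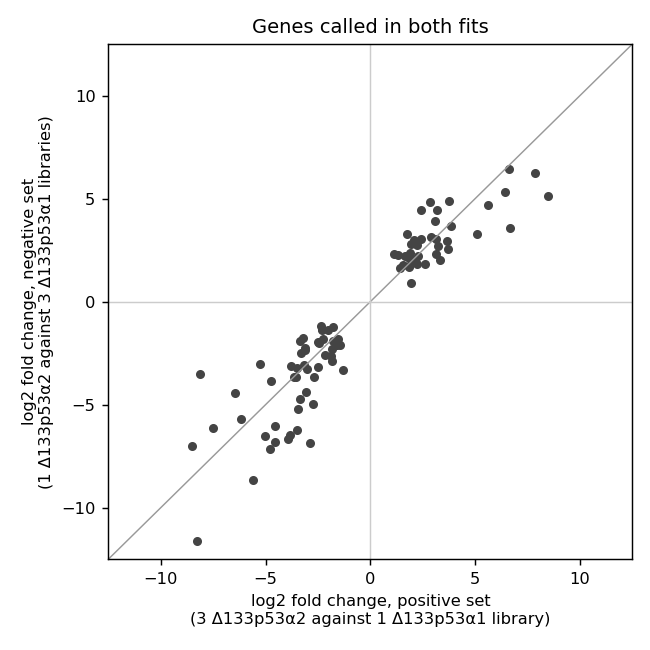
Log2 fold change, Δ133p53α2 minus Δ133p53α1, of the genes that differed between the clones, measured separately in the positive set (x axis, Δ133p53α1 replicate 1 against Δ133p53α2 replicates 2 to 4) and in the negative set (y axis, Δ133p53α2 replicate 1 against Δ133p53α1 replicates 2 to 4). Each point is 1 gene, and the 91 genes that passed in both fits and had a value in each set all lie in the lower left or the upper right part of the plot. For genes in which the clones do not overlap, this is all but fixed in advance.

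A further 9 genes passed only in the fit without the set, 4 higher and 5 lower in Δ133p53α2. VEGFA, the vascular endothelial growth factor, was at 25.7, 15.2, 14.0 and 14.4 CPM in Δ133p53α1 and at 50.4, 28.9, 90.9 and 36.6 CPM in Δ133p53α2 (log2 fold change 1.58, SE 0.366, edgeR, adjusted p = 0.0414). With the set as a term its log2 fold change was 1.43, below the threshold of 1.5, and the call was also lost without Δ133p53α1 replicate 2, 3 or 4 or Δ133p53α2 replicate 3, with adjusted p from 0.148 to 0.25. VEGFA was highest in replicates 1 and 3 of Δ133p53α2, which were also high for the stress genes described below. In control, replicate 3 was at 80.1 CPM against 28.9 to 30.5 CPM in the others. In Δ133p53α8, replicate 3 was at 64.4 CPM against 32.9 to 45.5 CPM. This likeness was not tested. FMN1, a formin that nucleates actin filaments, was at 3.93, 1.57, 1.54 and 1.49 CPM in Δ133p53α1 and at 3.23, 10.1, 11.8 and 9.12 CPM in Δ133p53α2. Replicate 1 of each clone lay between the rest, so that the clones overlapped, and the log2 fold change of FMN1 was 2.00 (adjusted p = 0.0239) but 1.46 with the set as a term. The FMN1 call was lost without any 1 of replicates 2 to 4 of either clone, with adjusted p from 0.0538 to 0.113. RXRA, the nuclear receptor that pairs with many others, was at 11.2, 12.4, 14.9 and 22.9 CPM in Δ133p53α1 and at 8.07, 3.97, 4.09 and 3.76 CPM in Δ133p53α2, with a log2 fold change of -1.63 that became -1.41 with the set as a term and -1.38 without Δ133p53α1 replicate 4. GABRQ, a GABA receptor subunit, was higher in Δ133p53α2 at 0.576 CPM ± 0.364 against 0.0613 ± 0.0475 (SD, n = 4 each, edgeR, adjusted p = 0.0397), from 4 to 24 counts against 0 to 2, and TLNRD1 and ENSG00000286190 were lower, with log2 fold changes of -1.56 and -1.80. Without 1 library, the GABRQ call was lost in every case other than Δ133p53α2 replicate 1, with adjusted p from 0.0526 to 0.144, and that of TLNRD1 without Δ133p53α1 replicate 2 (log2 fold change -1.46) or Δ133p53α2 replicate 4 (-1.40).

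Lists of genes for 26 processes, cell types and families were examined next. In 21 of them no member passed edgeR's test, among them cell cycle (20 tested), p53 transcriptional targets (22 tested), cholesterol synthesis (15), type I interferon response (15), epithelial (11) and mesenchymal markers (13), integrins and laminins (24), receptor tyrosine kinases (24), imprinted genes (26) and cancer-testis antigens (18). Of the 333 tested entries of these 21 lists, 66 had an unadjusted p under 0.05, as did 2789 of all 18295 tested genes, and 7 passed with DESeq2 and 0 with limma voom. In the other lists the members that passed were VEGFA in hypoxia response and in growth factors, ICAM1 in NF-kappaB targets, EPHB6 in axon guidance, and the 3 genes of the study's text. With the set as a term VEGFA did not pass, whereas PSAT1, NEFL, SEMA3F and ITGB2 passed. Each of these shares is to be read against the 0.552% of all tested genes that passed. The summed level of the p53 transcriptional targets was 639 to 671 CPM in Δ133p53α1 and 941, 722, 914 and 749 CPM in Δ133p53α2, with a median log2 fold change of 0.40 over the list and 0.033 over all tested genes. Replicates 1 and 3 of Δ133p53α2 were the highest, and in control replicate 3 was at 932 CPM against 673 to 761 CPM in the others. These are the libraries that were also high for the stress genes described next. SESN2 is a member of both lists, so its high levels in replicates 1 and 3 of Δ133p53α2, given below, enter both sums. The sum of the p53 list without SESN2 was not examined.

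The integrated stress response, by which cells that lack amino acids or face misfolded protein induce ATF4 and its targets, had the highest median of the lists. Its 15 tested members had a median log2 fold change of 1.62, and 1.53 with the set as a term, but none passed edgeR's test, although 13 had an unadjusted p under 0.05. PSAT1 alone passed with the set as a term, 3 members passed with DESeq2 and 0 with limma voom, and 7 passed in the negative set, which holds Δ133p53α2 replicate 1 alone of that clone. The values differed between the libraries of Δ133p53α2. TRIB3, a pseudokinase induced by ATF4, was at 26.9, 51.6, 63.6 and 46.0 CPM in Δ133p53α1 and at 706, 26.4, 330 and 28.8 CPM in Δ133p53α2 (log2 fold change 2.54, SE 0.878, edgeR, adjusted p = 0.190). DDIT4, an inhibitor of mTORC1, was at 25.9 to 55.2 CPM in Δ133p53α1 and at 519, 11.4, 307 and 35.9 CPM in Δ133p53α2 (adjusted p = 0.233). CHAC1, which degrades glutathione, was at 13.0 to 24.5 CPM in Δ133p53α1 and at 224, 7.03, 56.6 and 7.35 CPM in Δ133p53α2 (adjusted p = 0.320). Replicates 1 and 3 of Δ133p53α2 were thus high and replicates 2 and 4 were within or below the range of Δ133p53α1. SESN2, DDIT3 and ATF4 were also highest in replicates 1 and 3, with 191, 13.0, 127 and 14.6 CPM for SESN2 in Δ133p53α2. Replicate 1 was in the negative set and replicate 3 in the positive set, so the pattern did not follow the sets.

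PSAT1, an enzyme of serine synthesis, had the lowest p of the stress list, and its Δ133p53α2 libraries did not overlap those of Δ133p53α1. It was at 177, 146, 115 and 90.7 CPM in Δ133p53α1 and at 492, 199, 808 and 179 CPM in Δ133p53α2 (log2 fold change 1.67, SE 0.415, edgeR, adjusted p = 0.067). Summed over the list, the level was 4808, 1462, 3800 and 1447 CPM in Δ133p53α2 and 1287 to 1579 CPM in Δ133p53α1. High libraries were not particular to Δ133p53α2. The same sum was 2290 CPM in Δ133p53α8 replicate 2 and 2909 CPM in replicate 3, against 1487 and 1553 CPM in replicates 1 and 4. In control it was 3282 CPM in replicate 3 and between 1575 and 1658 CPM in the others. What set these libraries apart was not tested.

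**Figure D4:**
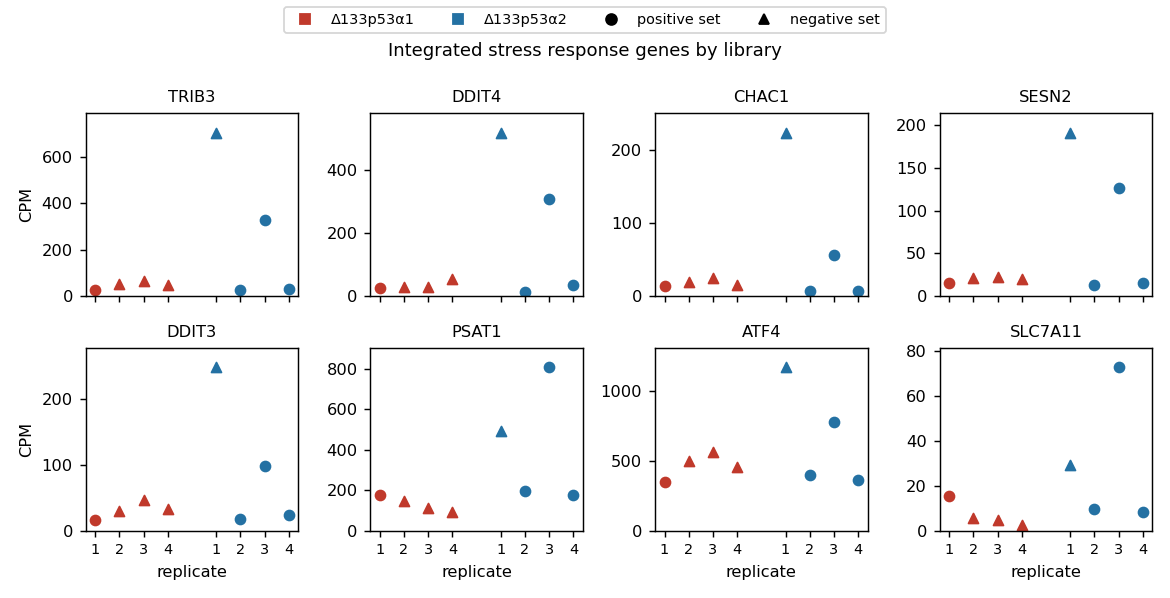
Level of genes of the integrated stress response in each library. In each panel the y axis is CPM from 0, the x axis gives the replicate, and each point is 1 library, coloured by clone and shaped by library set. Replicates 1 and 3 of Δ133p53α2 are the highest in the panels, whereas replicates 2 and 4 lie near the Δ133p53α1 libraries.

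Finally, the remaining Δ133p53α clone and control were set beside the 92 genes that passed in both fits. On the scale of mean log2(CPM + 0.1), Δ133p53α8 was nearer to Δ133p53α2 for 32 of the 41 higher and 38 of the 51 lower genes. Over all tested genes Δ133p53α8 was nearer to Δ133p53α2 for 78.4%, so these shares were close to the background. Control was nearer to Δ133p53α2 for 20 of the 41 higher and 16 of the 51 lower genes, against 66.9% of all tested genes. For 41 of the 92 genes Δ133p53α8 was on the side of Δ133p53α2 and control on the side of Δ133p53α1, and LINC01419, HSPB8, TRPM2 and ANXA3 were of this kind. Both lines were nearer to Δ133p53α2 for 29 genes, as for TTN and EPHB6, and both were nearer to Δ133p53α1 for 15 genes, as for ICAM1. For the last 7 genes Δ133p53α8 was on the side of Δ133p53α1 and control on that of Δ133p53α2. The shares of these joint classes over all tested genes were not examined, so their counts are no result about the 92 genes. Of the libraries of these lines, 3 of 4 in control and in Δ133p53α8 were of the positive set, as in Δ133p53α2, and the part of this in the nearness was not tested.

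**Figure D5:**
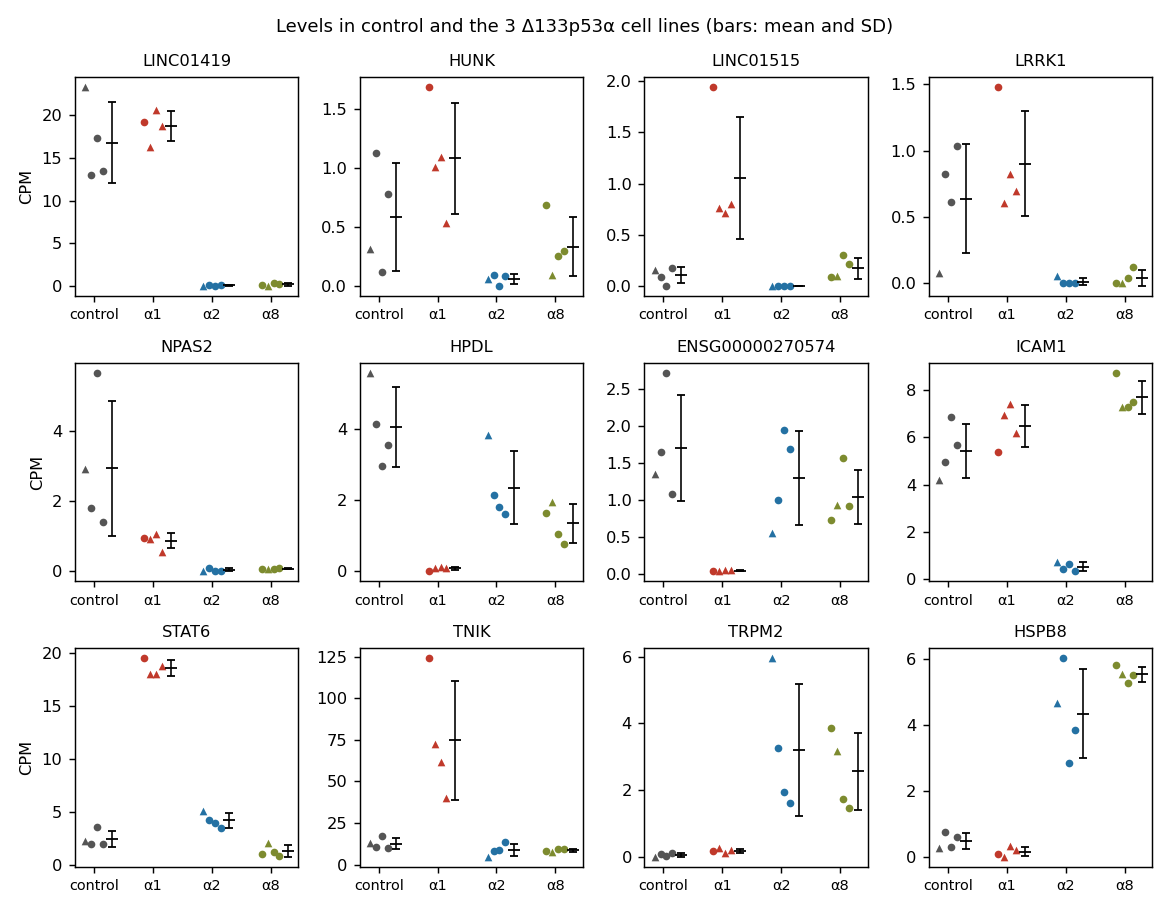
Level of selected genes in control, Δ133p53α1, Δ133p53α2 and Δ133p53α8. In each panel the y axis is CPM, each point is 1 library, shaped by library set, and the bars are the mean and SD of 4 libraries. ICAM1 is low in Δ133p53α2 alone of the 4 lines, HPDL is low in Δ133p53α1 alone, and LINC01419 is high in control and Δ133p53α1 only.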

How the data were processed

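The authors used Cutadapt for trimming of reads from strand-specific poly(A) libraries, HISAT2 for alignment to GRCh38 and featureCounts with Ensembl gene models for counting by exon and gene. Whether counting used the strand, and how multiply mapped reads were treated, is not given in the sources used here. The authors deposited the raw counts per gene and library, without normalization. The table holds 60564 genes, of which 1 has no name and held 0 counts. Of 24 libraries, 23 were fitted, and 1 column was not used, because its name and the labels disagree on its clone. Positions are from GENCODE (GRCh38), matched by symbol for 57876 and by identifier for 1976 genes, and 711 had no match. The transcript level of the transgene is not reported here.

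Counts were tested in R 4.3.3 with edgeR 4.0.16 (TMM, filterByExpr, quasi-likelihood, 6 lines, 17 residual degrees of freedom) with Benjamini-Hochberg adjustment over 18295 genes, which took up 99.9% or more of the counts in the 8 libraries. Named were the 12 genes with the highest and the 12 with the lowest fold change among those that passed with and without the library set and had at least 1 CPM in the higher clone. Also named were silent genes at 2 CPM or more, list members that passed, the 3 lowest p in each direction among genes that passed only without the set, genes of the study's text, and neighbouring groups of 3 or more. Lists and members were chosen with earlier results of these data known. Library separation used log2 CPM with a prior count of 2 and a two-sided exact permutation test. No library repeated another, since the chi-square per degree of freedom within a clone was between 19.7 and 281. Reads carry no molecular identifiers, so bounds from 3 counts cover counting error only. The procedure was tested on simulated data for Δ133p53α2 against Δ133p53α1 over 18295 genes. It recovered 100% of 8-fold, 84% of 4-fold and 4% of 2-fold rises and 80% of falls to 0.25. Of unchanged genes, 0.0399% passed. The simulated libraries held no difference between library sets, and only genes above a minimum expected count were changed. These rates therefore do not cover the set difference or genes with few counts. Alternatives were RLE factors, other filters, DESeq2 1.42.0, limma 3.58.1 (voom), fewer lines, a replicate block, the library set as a term or each set alone, removal of length and GC trends (98.6% of genes), 1 surrogate variable (sva 3.50.0) and dropping each library in turn. Leaving out replicate 1 of both clones was added after the data were seen.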

Additional observations from a re-analysis of the deposited data

Results flagged for a closer look

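The 30 genes with the highest or lowest fold changes or that passed only without the library set were examined. In 54 groups of 4 libraries, a library far from the other 3 was found 7 times. Chance gives about 1 in 20 groups, but this rate does not hold for genes chosen on the same values. Of the genes below, FMN1, VEGFA and RXRA were chosen because they passed only without the library set. All 7 were replicate 1 libraries, which are of the other set than replicates 2 to 4 of their clone. In Δ133p53α1, replicate 1 was high for TRPM6 (1.52 CPM, others 0.275 to 0.426), LINC01515 (1.94 CPM, others 0.714 to 0.799), FMN1 (3.93 CPM, others 1.49 to 1.57) and VEGFA (25.7 CPM, others 14.0 to 15.2). In Δ133p53α2, replicate 1 was high for WSCD1 (2.39 CPM, others 0.825 to 1.03) and RXRA (8.07 CPM, others 3.76 to 4.09), and it was low for TRPM6 (3.51 CPM, others 4.91 to 5.20). What made these libraries differ was not tested.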

How the results depend on the processing

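The 101 genes that differed (45 higher, 56 lower in Δ133p53α2) became 64 (29, 35) with a mean of at least 1 CPM, 22 (7, 15) in a fit of the 8 libraries alone, 25 (4, 21) in the positive set, 23 (20, 3) in the negative set, 187 (84, 103) with 1 surrogate variable and 191 (78, 113) with DESeq2. With the library set as a term 85 were lower, and a fold change of 1.5 gave 70 higher. Leaving out 1 library gave 61 to 163 (28 to 95 higher, 30 to 68 lower), with 163 without Δ133p53α1 replicate 1 and 61 without Δ133p53α2 replicate 3. Without replicate 1 of both clones, which leaves each clone in 1 set, 2414 passed (1497, 917), and 61 (27, 34) with the set as a term. Other settings stayed within 1.5 times. Of the 92 genes that passed with and without the set, 92 still passed under DESeq2, but 20 in the fit of 8 libraries, 19 in the positive set and 9 in the negative set, where 68, 92 and 91 had a value of the same sign. Of the named genes that passed, 24 of 39 with a value no longer did in the fit of 8 libraries, as did 34 of 46 in the positive and 36 of 46 in the negative set, where fewer libraries were compared. Without replicate 1 of both clones and with the set as a term, 13 of 45 were lost: DYSF, WSCD1, EPHB6, NKX2-5, VEGFA, CRACR2A, GABRQ, ENSG00000286190, LINP1, LINC00707, LINC02575, NPAS2-AS1 and ENSG00000279673. The cause of these shifts was not tested. None of the 46 named genes that passed reversed where they had a value. Of 14 named genes that did not pass, 4 reversed. MET became -0.17 in the positive and -0.15 in the negative set, and EGFR -0.29, -0.0048 and, with the set as a term, -0.025. TFRC ranged from -0.86 to 0.17 without 1 library, with 0.17 without Δ133p53α1 replicate 1 and 0.10 without Δ133p53α2 replicate 1, and was 0.50 without both, where ATF4 became -0.0022. Replicate numbers did not pair the clones (correlations of -0.874, 0.086, -0.629 and -0.147), and the replicate block gave 87 (39, 48), with no library matching its own number best. Separation after removal of the set difference was 0.523. The count of silent genes, 7, became 3 at 1 count, 51 at 0.2 CPM, 2 at 1 CPM and 7 to 12 without 1 library. Differences of 2-fold lie below the fold threshold and mostly did not pass in the simulated data, which held no difference between library sets.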

Other observations

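The middle of the distribution also differed for some chromosomes, although not evenly along them. With the library set as a term, the median log2 fold change was 0.22 on chromosome 9 (568 genes) and 0.21 on chromosome 3 (809 genes), and between -0.10 and 0.19 on the other chromosomes, among genes that averaged 1 CPM or more. On chromosome 9 the value was 0.26 in the positive set and 0.24 in the negative set, and on chromosome 3 it was 0.20 and 0.11. In windows of 10 Mb with at least 20 genes, 5 of 258 had a median beyond 0.4 in either direction. These were chromosome 9 from 0 to 10 Mb and from 70 to 80 Mb, chromosome 3 from 30 to 40 Mb and chromosome 10 from 40 to 50 Mb, all higher in Δ133p53α2, and the mitochondrial genome (26 genes), which was lower, with a median of -0.47. The mitochondrial value was 0.025 in the positive set and -0.95 in the negative set, so that the lower level was seen in the negative set alone. Along chromosome 3 the window medians were 0.20 to 0.44 up to 70 Mb and -0.018 to 0.27 beyond it. Along chromosome 9 they were 0.036 from 30 to 40 Mb and 0.083 in the last window, against 0.19 to 0.47 in the others. The windows were picked after their values were seen, and no test was made of them. DNA copy number was not measured, and its part in these values was not tested.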
